A study of Mus musculus with 3 samples.

Results

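The 9 genes described here encode enzymes that make leukotrienes and prostaglandins, the eicosanoid mediators of mast cells, or, for *Alox5ap*, a partner of such an enzyme. They were taken by name (*Hpgds* under the array's older name *Ptgds2*), with each of their probes. A probe is an oligonucleotide printed in 1 or more spots of the array. The 9 genes are among 27951 gene or transcript names tested, and 13 of the 41157 probes tested belong to them. Cytosolic phospholipase A2 frees arachidonic acid from membranes, and the acid is then drawn into either of 2 branches. In the leukotriene branch, 5-lipoxygenase and its membrane partner FLAP make an unstable epoxide, which leukotriene C4 synthase joins to glutathione and leukotriene A4 hydrolase turns into leukotriene B4. In the prostaglandin branch, the cyclooxygenases make an endoperoxide that terminal synthases convert into prostaglandin D2 or E2. Activated mast cells are a known source of prostaglandin D2 and of the cysteinyl leukotrienes that start from C4.

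RNA came from mast cell progenitors of 3 WT and 3 *p85α−/−* mice, the latter lacking the p85α regulatory subunit of PI3 kinase. Low density bone marrow cells grew in 10 ng/mL IL-3 for 7 days, were sorted as double positive for KIT and IgE receptor, and then received 100 ng/mL SCF, the KIT ligand, for 48 hours. The labels give no age, sex or strain of these mice. The few cells sorted required global PCR amplification of the cDNA, and 250 ng was labeled. Each of 3 arrays compared 1 WT culture with 1 *p85α−/−* culture, so n = 3 per genotype. Cy3 was always WT and Cy5 always *p85α−/−*, so dye and genotype cannot be told apart. Median spot signals were 76.1, 71.5 and 141.2 for WT on replicates 1 to 3, and 210.9, 517.3 and 206.6 for *p85α−/−*. Of all spots, 69.4% to 85.3% were well above background for WT and 77.3% to 93.8% for *p85α−/−*. The number of arrays limits the precision of every ratio. *Pik3r1*, the disrupted gene, had mean log2 ratios of *p85α−/−* over WT of 0.59, −0.58, 0.32 and −0.04 at its 4 probes, which leaves the genotype of the channels unchecked. Directions are therefore those of cultures labeled *p85α−/−* against cultures labeled WT. By western blot the paper found p85α lost in bone marrow-derived mast cells of *p85α−/−* mice, cultures other than those on the arrays. It also reports qPCR of several genes that went the way of its array results.

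The leukotriene branch held the members that separated the genotypes, and they went both ways. *Alox5ap* and 1 probe of *Alox5* were higher in all 3 *p85α−/−* cultures than in any WT culture, while *Ltc4s* was lower in all of them. In bulk samples such as these, fewer cells of a type and less RNA per cell cannot be told apart. *Ptgs1* was far higher in *p85α−/−* on 2 arrays but not on the other, and *Ptges* and the brighter probe of *Ptgs2* had means close to 0. By the brightest probe of each gene, 7 of the 9 members had a mean log2 ratio above 0, against 44.8% of all probes, and the median over the members was 0.25, against −0.05 over all probes. This median is the ratio of *Lta4h*, for which 1 channel of each array was not well above background, so it is no measured difference, and it lay between 0.070 and 0.84 when any 1 array was dropped. With limma's test, 0 member probes had an adjusted p under 0.05, as for 0% of all probes. The adjusted p ran from 0.908 to 0.998 over the 13 member probes. Of the 13 member probes, 2 differed by 1.5-fold or more at an unadjusted p under 0.05, both higher in *p85α−/−*, where 4.44% of all probes passed in either direction, 2.78% higher and 1.66% lower. The 3 *p85α−/−* cultures were all above the WT cultures at 2 of the 13 probes (4.54% of all probes) and all below at 1 (5.94% of all probes). In the methods' t-test 3 member probes passed both criteria unpaired (2.73% of all probes) and 0 paired by array (1.99% of all probes). So few members set these shares that nothing particular to the list is read from them.

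**Figure D1:**
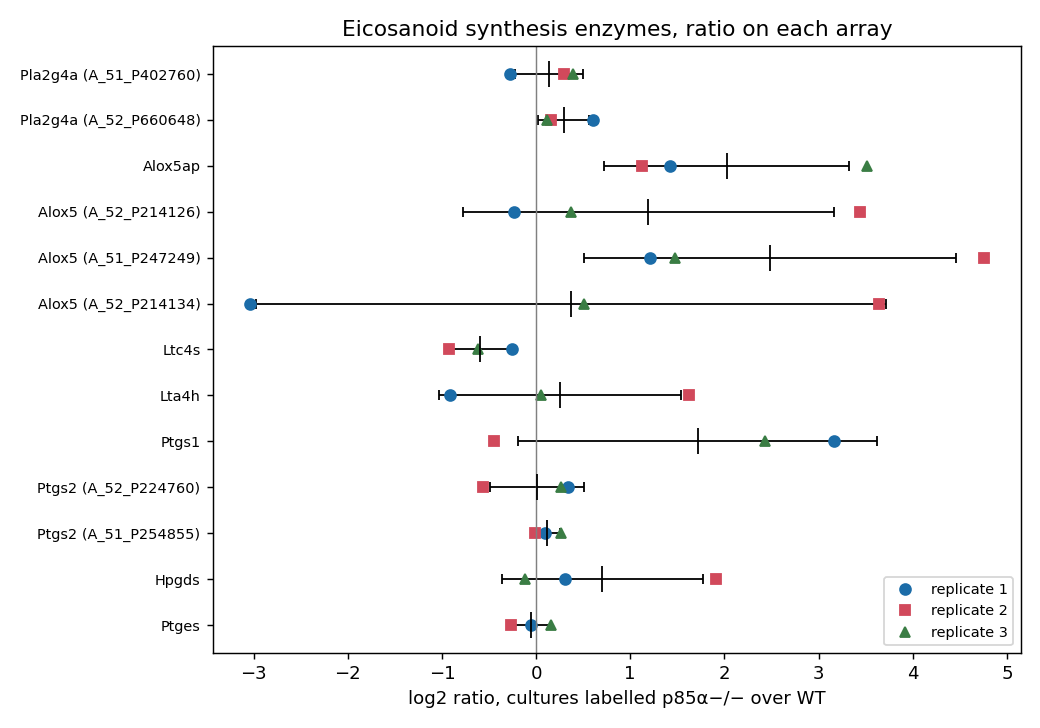
Log2 ratio of cultures labeled *p85α−/−* over WT (horizontal axis) at each of the 13 probes of the 9 genes (vertical axis, array probe name in brackets where a gene has several). Symbols are the 3 arrays, the vertical tick is their mean and the bar is 1 SD. *Alox5ap* and the second *Alox5* probe lie to the right of 0 on every array and *Ltc4s* to the left, from −0.92 to −0.25.

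*Pla2g4a*, the cytosolic phospholipase that supplies arachidonic acid to both branches, differed little by quantile normalized values. Its brighter probe had normalized log2 intensities of 8.42, 8.26 and 8.03 in WT and 8.14, 8.56 and 8.42 in *p85α−/−*, on replicates 1 to 3. The groups overlapped, and the mean log2 ratio was 0.14 ± 0.36 (SD, n = 3, limma's 95% interval −0.65 to 0.92). The other probe had 0.61, 0.16 and 0.12 as log2 ratios (mean 0.29 ± 0.27) and was well above background in WT on 2 arrays only. The first mean is below the spread between arrays. Under the alternatives the brighter probe ran from 0.009 without replicate 3 to 0.62 with median centring, and the other from 0.03 with median centring to 0.93 with the software's signals. Both probes are annotated to chromosome 1, with starts 161 bases apart. No genome build is named for the array's positions. Limma gave adjusted p-values of 0.954 for the brighter probe and 0.908 for the other.

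*Alox5ap* encodes FLAP, which presents arachidonic acid to 5-lipoxygenase. Its normalized log2 intensities were 12.26, 12.41 and 10.54 in the WT cultures and 13.68, 13.54 and 14.06 in the *p85α−/−* cultures. Every *p85α−/−* culture was above every WT culture, and the WT culture of replicate 3 stood well below the others. The log2 ratios were 1.42, 1.13 and 3.52, a mean of 2.02 ± 1.30 (SD, n = 3, limma's 95% interval 0.32 to 3.73) or 4.07-fold, with limma's adjusted p at 0.908 (0.031 before adjustment). An exact two-sided permutation test of 3 against 3 cultures cannot go below 0.10, nor one by sign over 3 pairs below 0.25. Without replicate 3 the mean fell to 1.28, at a limma unadjusted p of 0.040. Without replicate 1 the mean was 2.32 and without replicate 2 it was 2.47, and limma's unadjusted p was then 0.062 and 0.056. It was 0.063 with loess and Aquantile normalization, 0.053 with the scanner software's processed signals and 0.060 with its log ratio, at means of 1.86, 1.96 and 1.96, so the call was lost there too. The probe lies at chr5:148181223-148181282 by the array's annotation.

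*Alox5* encodes 5-lipoxygenase itself, and its 3 probes disagreed. At the brightest, the normalized log2 intensity was 12.67, 10.43 and 11.73 in WT and 12.44, 13.87 and 12.11 in *p85α−/−*. These groups overlapped, and only replicate 2 had a large ratio (−0.23, 3.44 and 0.37, mean 1.19 ± 1.97, limma's adjusted p 0.908). At the second probe WT had 10.99, 8.64 and 10.44 and *p85α−/−* had 12.20, 13.39 and 11.92. Here the groups did not overlap and the ratio was above 0 on every array (1.21, 4.75 and 1.48). The mean of 2.48 ± 1.97 had a limma 95% interval of 0.01 to 4.95, and limma's adjusted p was 0.908 (0.049 before adjustment). Without replicate 1 or replicate 3 its unadjusted p was 0.057 or 0.078, no longer past 0.05, at means of 3.12 and 2.98, and with the software's log ratio it was 0.062 at 2.70. At the third probe WT had 11.03, 9.09 and 9.67 and *p85α−/−* had 7.99, 12.73 and 10.18, and the ratios of −3.04, 3.64 and 0.51 went both ways (mean 0.37 ± 3.34, limma's adjusted p 0.980). All 3 probes were well above background in each channel of every array. The annotation places the brightest at chr6:116436021-116436080 and the second at chr6:116435981-116436040, on the minus strand. They share 20 bases, yet their ratios on replicate 1 were −0.23 and 1.21. The third starts 2140 bases from the brightest, at chr6:116438161-116438220. On replicate 2 every *Alox5* probe was at least 3.44 above WT on the log2 scale, and without that replicate the means were 0.07, 1.35 and −1.26.

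*Ltc4s* encodes leukotriene C4 synthase, the enzyme that commits the pathway to cysteinyl leukotrienes. Its normalized log2 intensities were 7.42, 7.92 and 7.83 in WT and 7.16, 7.00 and 7.21 in *p85α−/−*. All 3 *p85α−/−* cultures lay below the WT cultures, over a narrow range near the low end of the scale. The log2 ratios were −0.25, −0.92 and −0.61, a mean of −0.60 ± 0.33 (SD, n = 3, limma's 95% interval −1.36 to 0.17), with limma's adjusted p at 0.908 (0.095 before adjustment). The spot signal before normalization was 55.6, 79.1 and 151.6 in WT over local backgrounds of 31, 31.5 and 35, and 101.8, 224.7 and 109 in *p85α−/−* over 47, 62.5 and 48.5. The raw *p85α−/−* signal was thus above WT on replicates 1 and 2, where the lower ratio appears only relative to the other probes of each channel, and below WT on replicate 3. It stayed below 0 under all 13 alternatives run for this gene, from −1.47 with the software's processed signals and log ratio (limma's unadjusted p 0.033 for the latter) to −0.43 without replicate 2. Without the pairing by array limma's unadjusted p was 0.037. The probe was well above background in both channels of every array.

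*Lta4h*, leukotriene A4 hydrolase, opens the route to leukotriene B4. WT had normalized log2 intensities of 7.72, 6.99 and 6.75 and *p85α−/−* had 6.80, 8.61 and 6.80. The *p85α−/−* culture of replicate 2 stood above the rest, and the ratios of −0.92, 1.63 and 0.05 have a mean of 0.25 ± 1.28, below their spread (limma's adjusted p 0.961). No array had both channels well above background, so each of these ratios is against a level near background and is not read as a fold change. The probe was well above background in WT on 2 arrays and in *p85α−/−* on 1 array, replicate 2, where the raw signal was 958 against 70.9 and 67.0 on replicates 1 and 3.

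**Figure D2:**
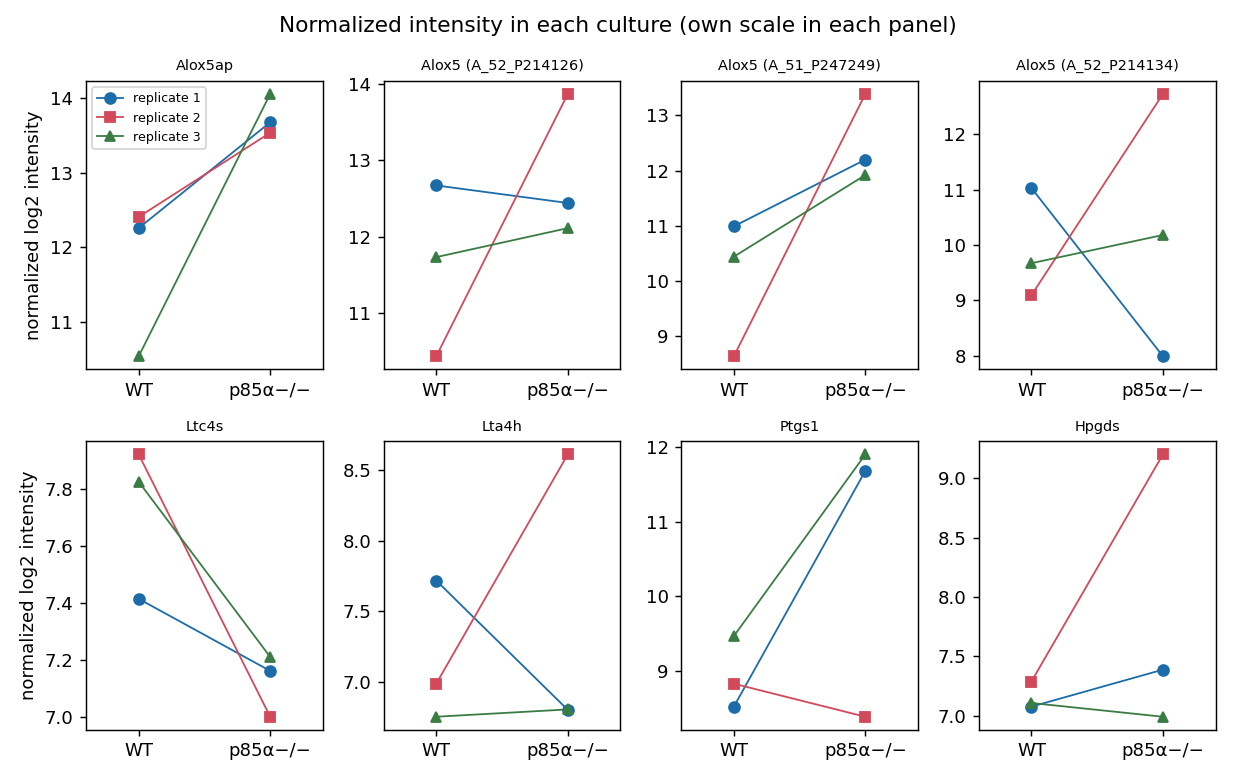
Normalized log2 intensity (vertical axis, a separate scale in each panel) in the WT and *p85α−/−* cultures for 8 probes of 6 genes, with a line joining the cultures of an array. *Alox5ap* and the second *Alox5* probe are higher and *Ltc4s* lower in *p85α−/−* on all 3 arrays, whereas *Lta4h* and *Hpgds* depart from WT mainly on replicate 2 and *Ptgs1* on replicates 1 and 3.

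In the prostaglandin branch, *Ptgs1*, the constitutive cyclooxygenase, had the largest differences within arrays. Its normalized log2 intensity was 8.52, 8.83 and 9.47 in WT and 11.68, 8.38 and 11.90 in *p85α−/−*. On replicates 1 and 3 the *p85α−/−* culture was higher by 3.16 and 2.43, and on replicate 2 it was not, at −0.44. The groups overlapped through that culture, and the mean of 1.72 ± 1.91 (SD, n = 3) had a limma adjusted p of 0.908 (0.115 before adjustment). Without replicate 2 the mean was 2.80 and limma's unadjusted p was 0.008. With median centring in place of quantile normalization the mean was 2.76, and that of the brightest *Alox5* probe was 2.50, both then past 1.5-fold and an unadjusted p under 0.05. The raw signal was 139, 165 and 509 in WT and 8952, 828 and 8380 in *p85α−/−*, so on replicate 2 it was above WT too, and the lower ratio there appears only relative to the other probes of each channel.

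*Ptgs2*, the inducible cyclooxygenase, was near background. Its brighter probe had 6.87, 7.35 and 6.94 in WT and 7.21, 6.79 and 7.20 in *p85α−/−*, with overlapping groups and a mean log2 ratio of 0.01 ± 0.50 (limma's adjusted p 0.998). This probe was well above background in WT on 2 arrays and in *p85α−/−* on all 3. The other probe is printed 10 times on each array. It was well above background in WT on 0 arrays and in *p85α−/−* on 2, so WT has only a bound there and the ratios of this probe are not read as fold changes. Their mean was 0.11 (limma's adjusted p 0.956), with −0.26 under median centring. It was 1.125 with the software's processed signals (limma's unadjusted p 0.1235) and with its log ratio (0.044, there past both criteria).

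*Hpgds*, the hematopoietic prostaglandin D synthase of mast cells, had normalized log2 intensities of 7.08, 7.29 and 7.11 in WT and 7.39, 9.20 and 6.99 in *p85α−/−*. Again only replicate 2 stood apart, with a ratio of 1.91 beside 0.31 and −0.12, and the mean of 0.70 ± 1.07 lay within its spread (limma's adjusted p 0.908). The raw *p85α−/−* signal was 134 and 85.8 on replicates 1 and 3 and 1388 on replicate 2. *Ptges*, the inducible prostaglandin E synthase, had ratios of −0.05, −0.27 and 0.16 and a mean of −0.06 ± 0.21 (limma's 95% interval −0.76 to 0.64, limma's adjusted p 0.983). Among the members, the SD of the ratio between arrays thus ran from 0.14 to 3.34 log2 units, beside a median of 0.67 over all probes.

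Markers of the sorted cell type were measured on the same arrays, and several of them also differed from array to array. Of 14 mast cell markers, 13 had a mean log2 ratio above 0, with a median of 1.47, and 5 passed 1.5-fold and p under 0.05, unadjusted, in limma, all higher in *p85α−/−*, as did 2.78% of all probes. The log2 of their summed intensity was 16.15, 15.41 and 15.71 in WT and 17.51, 17.29 and 16.81 in *p85α−/−*, and *Cma1*, a mast cell chymase, was the brightest. *Kit* was higher on every array, by 1.45, 2.19 and 2.54. *Fcer1a*, the α chain of the IgE receptor, had −2.99, 3.32 and 1.39, and *Cpa3*, mast cell carboxypeptidase, had 0.39, 4.37 and 0.01. *Ms4a2*, the receptor's β chain, had 0.79, 3.35 and 0.25 and was well above background in WT on 1 array. *Hdc*, which makes histamine, had 0.20, −1.68 and 4.34. Each *Alox5* probe, *Hpgds* and *Lta4h* had their highest ratio on replicate 2, but by brightest probe 3 of the 9 members were highest on each replicate. Of the 14 markers *Fcer1a*, *Cpa3* and *Ms4a2* were highest on replicate 2, with 6 highest on replicate 1 and 5 on replicate 3. The *Ms4a2* ratios are not read as fold changes, since WT was well above background on 1 array only. The median over the markers was 1.20, 1.62 and 1.33 on replicates 1 to 3. The part of these markers in the members' ratios was not tested.

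The summed intensity of neutrophil markers was high in the *p85α−/−* cultures in which *Ptgs1* was high. Of 9, 7 had a mean log2 ratio above 0, with a median of 1.64 over the list, and 2 passed 1.5-fold and p under 0.05, unadjusted, in limma, *S100a8* and *S100a9*, both higher in *p85α−/−*, beside 44.8% of all probes above 0 and 2.78% past both criteria and higher. The log2 of their summed intensity was 13.37, 14.26 and 13.05 in WT and 16.10, 12.81 and 17.84 in *p85α−/−*. The brightest, *Mpo* (myeloperoxidase), had ratios of 2.90, −3.37 and 5.39. Its own log2 intensity in *p85α−/−* was 15.48, 10.68 and 17.59, so on replicates 1 and 3 the sum was largely *Mpo*. *Ltf* had ratios of −0.31, 0.17 and −1.51 and *Ngp* 0.14, −0.28 and −0.19, so neither was higher on replicate 3. *S100a9* had 3.56, 0.49 and 3.61. Like *Ptgs1*, the sum was above WT on replicates 1 and 3 and below it on replicate 2, but the list did not move as 1. On replicate 2, 6 of the 9 were above 0 (median 0.17), with *Mpo* and *Elane* (−1.78) lower and *Mmp8* at 2.49, while on replicate 1 *Mmp8* was at −0.37. Within the list, *Lcn2* was well above background in WT on 0 arrays. Whether these markers had a part in the *Ptgs1* ratio was not tested.

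Of the other blood cell lists, 4 are described, with medians between −0.04 and 0.38. Of 8 macrophage markers 4 were above 0 (median −0.04, summed log2 intensity 11.66 to 12.83 in WT and 11.66 to 12.03 in *p85α−/−*, *C1qb* brightest), and *Mrc1* was well above background in WT on 0 arrays. Of 4 basophil markers 2 were above 0 (median 0.38, 10.79 to 13.19 in WT and 12.34 to 12.78 in *p85α−/−*, *Mcpt8* brightest). Of 5 eosinophil markers 3 were above 0 (median 0.27, 12.52 to 12.81 in WT and 12.07 to 12.49 in *p85α−/−*), and the brightest, *Prg3*, passed 1.5-fold and p under 0.05, unadjusted, in limma, lower in *p85α−/−*. Of 6 megakaryocyte and erythroid markers 5 were above 0 (median 0.22, 13.04 to 13.20 in WT and 12.29 to 14.12 in *p85α−/−*, *Hbb-b1* brightest). Apart from *Prg3*, 0 genes of these 4 lists passed both criteria, beside 4.44% of all probes in either direction, 2.78% higher and 1.66% lower.

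The wider eicosanoid pathway did not move as 1 group. Of its 53 other genes, 24 had a mean log2 ratio above 0, with a median of −0.08. In limma 3 passed 1.5-fold at an unadjusted p under 0.05, all higher in *p85α−/−*, and 0 passed lower, beside 4.44% of all probes in either direction. *Akr1b3*, an aldose reductase with prostaglandin F synthase activity, had 1.004, 1.57 and 2.28 (mean 1.62 ± 0.64), although its other probes had means of −0.20 and −0.75. *Ptges3*, the cytosolic prostaglandin E synthase also known as the chaperone p23, had 2.90, 2.55 and 0.50 (1.98 ± 1.29) and a mean of 1.19 at its other probe. *Pla2g7*, which breaks down platelet-activating factor, had 1.23, 0.35 and 1.63 (1.07 ± 0.65). Limma's adjusted p was 0.908 for all 3. Each lost this call when 1 array was left out, and *Akr1b3* and *Pla2g7* also without the pairing by array (limma's unadjusted p 0.065 and 0.120). *Pla2g7* lost it too with loess and Aquantile (limma's unadjusted p 0.057) and with dim probes left out (0.057). With the software's processed signals its limma unadjusted p was 0.11. With the software's log ratio *Pla2g7* and *Ptges3* both lost the call (limma's unadjusted p 0.067 and 0.051). Limma's unadjusted p was 0.058 for *Akr1b3* at 1.64 without replicate 2, 0.119 and 0.147 for *Ptges3* at 1.52 and 1.70 without replicates 1 and 2, and 0.157 and 0.168 for *Pla2g7* at 0.99 and 0.79 without replicates 1 and 3. Over all its probes, *Akr1b3* had a mean of 0.22.

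By step of the pathway, the other prostanoid synthases had a median of 1.31 over 7 genes by their brightest probes, 5 of them above 0, but 0.22 by the mean over each gene's probes, an alternative chosen after the data had been seen. *Tbxas1*, thromboxane synthase, had 0.09, 2.25 and 3.96 (2.10 ± 1.94). The list of phospholipases and acyl transfer had a median of 0.21, with 7 of 13 above 0. It also holds *Mapkapk2* and *Anxa1*, which are neither phospholipases nor acyl transfer enzymes. The median of 0.21 is the ratio of *Pla2g10*, which was well above background in WT on 0 arrays and in *p85α−/−* on 1. It is therefore no measured difference. *Mapkapk2*, a kinase downstream of p38, had 1.25, −0.55 and 4.09, and *Anxa1*, annexin A1, had −3.64, −0.39 and −1.58 (−1.87 ± 1.65). The list of other lipoxygenases had a median of −0.26, with 2 of 6 above 0. It also holds *Cotl1*, which is not itself a lipoxygenase and is among those above 0 (0.77, 0.91 and 0.33, mean 0.67). Of the lipoxygenases *Alox15* had 0.12, −2.94 and −0.61 and *Aloxe3* had −3.08, −0.01 and −0.36. The list of cysteinyl leukotriene synthesis and export had a median of 0.06, with 5 of 9 above 0, and *Abcc4*, a leukotriene and prostaglandin exporter, had −1.096, −1.61 and 0.08. By the mean over each gene's probes the median of this list was −0.03, and those of the lipoxygenase and receptor lists were −0.14 and −0.13. It was −0.09 for breakdown and uptake and 0.21 for the list of phospholipases and acyl transfer. Of 5 genes of breakdown and uptake 1 was above 0 (median −0.12), and *Cyp4f18*, which degrades leukotriene B4, had −0.38, −1.87 and −0.16. The receptors had a median of −0.21, with 4 of 13 above 0. This median is the ratio of *Ptger1* (−1.40, 0.76 and 0.0004), which was well above background on only 2 arrays in each genotype. It is not read as a difference. *Ltb4r1*, the leukotriene B4 receptor, had 2.87, −0.54 and 1.74, high on the arrays on which *Ptgs1* was high. Apart from *Akr1b3*, *Ptges3* and *Pla2g7*, each gene named here missed at least 1 of both criteria in the main fit. Limma's adjusted p was 0.917 for *Pla2g10*, 0.963 for *Ptger1* and 0.908 for each of the rest. *Tbxas1* passed both with median centring, without pairing, without replicate 1 and as a mean over probes (limma's unadjusted p 0.020, 0.027, 0.016 and 0.045). *Anxa1* did with the software's processed signals (0.047) and without replicate 2 (0.049). *Ltb4r1* did without replicate 2 (0.022) and *Abcc4* without replicate 3 (0.040).

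The promoters of the members were read to see what letters the genes above and below WT share. RefSeq windows of 250 bases before the transcription start (GRCm38.p6) were found for 8 of the 9 members, not for *Alox5ap*. Windows of *Alox5*, of *Ltc4s*, which went the opposite way, and of *Ptgs1* are printed, 5′ to 3′ on the gene's strand. Capitals mark the GC box, spelled GGGCGG, and the motif GGAAGT that ETS factors bind, on either strand. Searched for and marked in the same way were the motif of GATA factors, spelled AGATAA, then CCAAT and, for the TATA box, the letters TATAAA. No base fell in more than 1 motif.
Alox5 (chr6:116461179-116461428, minus strand): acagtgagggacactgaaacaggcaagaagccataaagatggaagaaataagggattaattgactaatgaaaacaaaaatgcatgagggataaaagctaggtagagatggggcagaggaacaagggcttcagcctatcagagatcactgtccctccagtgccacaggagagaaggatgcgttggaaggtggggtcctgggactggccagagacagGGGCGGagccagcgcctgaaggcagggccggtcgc
Ltc4s (chr11:50238533-50238782, minus strand): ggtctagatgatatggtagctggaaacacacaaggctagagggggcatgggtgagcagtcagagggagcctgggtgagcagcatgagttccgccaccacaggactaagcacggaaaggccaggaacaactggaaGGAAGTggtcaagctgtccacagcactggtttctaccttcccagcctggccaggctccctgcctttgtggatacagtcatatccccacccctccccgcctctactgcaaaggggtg
Ptgs1 (chr2:36230176-36230425, plus strand): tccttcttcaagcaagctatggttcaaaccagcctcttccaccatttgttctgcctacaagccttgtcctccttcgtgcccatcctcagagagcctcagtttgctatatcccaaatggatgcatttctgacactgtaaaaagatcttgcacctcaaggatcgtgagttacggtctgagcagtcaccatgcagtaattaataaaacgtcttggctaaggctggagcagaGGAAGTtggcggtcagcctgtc
The *Alox5* window held 1 GC box and no other of these motifs, and 32.7% of all 32851 RefSeq windows of this length hold a GC box. Those of *Ptgs2* and *Ptges* held 1 and 2 GC boxes, and that of *Lta4h* had CCAAT letters at 2 places. The *Ltc4s* and *Ptgs1* windows each held 1 ETS motif, which 19.7% of windows hold, so *Ltc4s* shares this motif with a gene whose mean ratio had the other sign. The *Hpgds* window also held 1 ETS motif, and 1 of the 2 *Pla2g4a* windows held 2 ETS motifs and 1 TATA box. None of these 3 printed windows held a motif of GATA factors (9.99% of windows), CCAAT letters (33.8%) or a TATA box (12.4%). The GC content was 52.8% for *Alox5*, 57.6% for *Ltc4s* and 48.0% for *Ptgs1*, beside a median of 52.4% over all windows. All 5 motifs were chosen after the data had been seen, and that of ETS factors after the sequences had been read. A match describes letters, not a site in use.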

How the data were processed

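For each array the authors deposited output of Agilent Feature Extraction 9.5.1.1, which holds intensity values (mean spot brightness and median local background, not normalized, and processed signals). The same software wrote the deposited log10 ratios of Cy5 to Cy3. A deposited value table was not used, because for replicates 2 and 3 only 190 and 226 of 40929 single-spot probes hold their own scanner ratio (tolerance 1.5e-05).

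Mean signals were corrected by normexp with an offset of 50, and quantile normalization, which the paper names, was applied to the 6 channels in R 4.3.3 with limma 3.58.1. Control and outlier spots were then left out and spots of a probe averaged. The log2 ratio of each array was tested against 0 with limma (eBayes) and Benjamini-Hochberg adjustment over 41157 of 41174 probes, those with a value on every array. The ratio pairs cultures sharing an array. The fit was tested on simulated data. With 200 of 41157 probes changed 4-fold, 200 of these and 6 unchanged probes had an adjusted p under 0.05 at an SD of 0.1. At the SD of these arrays 0 did, and 170 of those changed passed both criteria. All arrays lay on 1 slide, scanned on 1 day.

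Named are all members with every probe, pathway genes past both criteria or among the 5 highest and 5 lowest that were bright, 5 mast cell markers (*Kit*, *Fcer1a*, *Ms4a2*, *Cpa3*, *Hdc*), the brightest and undetected genes of the other marker lists, and *Pik3r1*. *Cma1*, *S100a8*, *S100a9*, *Elane*, *Mmp8*, *Ltf*, *Ngp*, *Prg3*, *Cotl1*, *Pla2g10* and *Ptger1* were named after their values were seen. Unless stated, a gene's brightest probe was used. Members and lists were chosen with earlier results of these data known. Of the listed genes, *Prxl2b*, *Oxer1*, *Pf4* and *Ppbp* had no probe by name. Results of 1 planned marker list are left out, because they need an item withheld from print. All 9 members were matched by accession to RefSeq (GRCm38.p6). Alternatives were other normalizations and background corrections, the software's signals and log ratio, dim probes left out, outlier spots retained, no pairing, the methods' t-test, each replicate left out, and the mean over a gene's probes.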

Additional observations from a re-analysis of the deposited data

How the results depend on the processing

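With limma or the methods' t-test, 0 probes had an adjusted p under 0.05 under each of the 13 alternatives that give this count. Limma put 1829 probes past 1.5-fold at an unadjusted p under 0.05, the methods' t-test 1125 without and 819 with pairing. Leaving out 1 replicate gave 1555 to 3165, the most without replicate 2. Of the called probes 62.6% were higher in *p85α−/−*, from 47.5% without replicate 2 to 91.4% with median centring of each array, under which the median over all probes went from −0.05 to 0.09. Single pathway and marker genes, further probes of members and the count of called member probes were followed under these alternatives only after the data had been seen.

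The 2 member probes past both criteria (4.44% of all probes passed) became 1 with loess and Aquantile (3.97%), 1 with the software's processed signals (5.16%), 4 with median centring (6.56%), 3 without the pairing by array (no replicate block, 4.40%), 3 in the methods' unpaired t-test (2.73%), 0 in its paired form (1.99%), where *Alox5ap* had an unadjusted p of 0.115 and the second *Alox5* probe 0.161, and 0, 2 and 1 without replicates 1, 2 and 3 (3.78%, 7.69% and 4.25%). The probes changed too. Without replicate 2 the 2 were the second *Alox5* probe and *Ptgs1*, and with the software's log ratio (4.96%) *Ltc4s* and the second *Ptgs2* probe. Members with a mean above 0 numbered 6 or 7 under the 14 alternatives. The median over the members, 0.25, was 0.62 with median centring and between 0.070 and 0.84 with 1 replicate left out. That over the other pathway genes, −0.08, was 0.34 and ran from −0.13 to 0.12. That over the mast cell markers, 1.47, was 2.39 with median centring, 1.23 with loess and Aquantile, and ran from 1.104 to 1.81. Without the pairing by array *Ltc4s* passed both criteria (−0.60). WT and *p85α−/−* cultures of an array had correlations of 0.06, −0.06 and −0.02 between their deviations from the group means across probes, which are not independent, so same-numbered cultures shared an array but their deviations were nearly unrelated.

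Changes of sign concerned values near 0, dim probes or 1 replicate. With the software's processed signals and its log ratio, *Lta4h* had −0.34, *Ptges* 0.010 and *Ptgs2* −0.059. *Ptgs2* had −0.048 without background subtraction, and with median centring −0.26 at both probes, where *Ptges* had 0.20. With 1 replicate left out, *Ptgs2* ran from −0.15 to 0.30, *Ptges* from −0.16 to 0.052, *Lta4h* from −0.43 to 0.84, the third *Alox5* probe from −1.26 to 2.08, *Fcer1a* from −0.80 to 2.36 and *Hdc* from −0.74 to 2.27. *Alox5ap*, from 1.28 to 3.17, and *Ltc4s* kept their direction under all 13 alternatives run for them, but *Alox5ap* passed both criteria under 7 and *Ltc4s* under 3. *Akr1b3* had 0.22 as a mean over its probes. In the methods' unpaired t-test *Akr1b3* and *Pla2g7* lost their calls (unadjusted p 0.118 and 0.182). In the paired form of that test *Ptges3* and *Pla2g7* lost theirs (unadjusted p 0.117 and 0.1055), while *Akr1b3* passed (0.048). Where no replicate was left out, the cause was not tested. The deposited value table was not run as an alternative, because its rows do not hold the scanner's ratios on 2 arrays, and the mean over probes gives no count of probes. Dim genes such as *Lta4h* and *Ptgs2* were not well above background in both channels of every array.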
